A study of Oryza sativa with 4 samples.

Results

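The 9 genes described here encode the largest subunits of RNA polymerases IV and V, CLASSY-type (CLSY) chromatin remodellers, AGO4-clade Argonautes and the small RNA methyltransferase HEN1 of rice. They were chosen by locus ID, and each of the 9 IDs had a row of its own among the 57143 rows that the deposited table gives for a pair of libraries. The libraries are RNA-seq of oligo(dT)-enriched RNA from young panicle, the developing inflorescence, of soil-grown japonica rice. The labels describe 2 samples titled osrdr2-3, with the genotype given as DES1 mutant, and 2 samples titled Nip, with the genotype given as control. Values of 4 libraries were left aside. A further control name (ck3) matches none of the labelled samples here. The 3 names that begin with des1 point to the mutant group, but they outnumber its 2 labelled samples and carry other numbers, so none could be tied to a sample. The osrdr2-3 samples were therefore not analysed here, and no difference between genotypes is given. All values are of the 2 Nip libraries, replicates 1 and 2 (n = 2 for every mean ± SD), and their spread may be technical, since the labels do not say whether they came from separate plants.

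In RNA-directed DNA methylation, as worked out mainly in Arabidopsis, Pol IV makes short transcripts at silent chromatin, and CLSY proteins bring it to its targets. An RNA-dependent RNA polymerase copies these transcripts into double-stranded RNA, a Dicer-like enzyme cuts it into small interfering RNAs, and HEN1 methylates their ends, which protects them. AGO4-type Argonautes load the small RNAs and pair with transcripts of Pol V, and a DRM methyltransferase is then brought to the DNA. In rice the pathway is known for silencing transposons and shaping the expression of nearby genes, panicle genes among them.

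Levels are FPKM (fragments per kilobase of transcript, scaled for library size in a way the labels do not state). They are per length, so different genes can be set side by side. Coordinates are as the table gives them, and their genome build is not stated in the labels. From the regular steps between the lowest values, a level of 1 FPKM over 1 kb of transcript corresponded to about 26.5 fragments in replicate 1 and 25.0 in replicate 2, and replicate 1 was 1.07 times as deep. These are estimates. The fragment numbers assume a fragment length of 250 bp and take the span of a locus as its transcript length. All 5 floral organ identity genes listed as panicle markers stood above 10 FPKM in both libraries, at 17.2 to 1686 FPKM in replicate 1 and 16.7 to 1655 FPKM in replicate 2. The 3 green tissue markers were at 59.2 to 356.7 and 57.2 to 307.0 FPKM, and the 3 tapetum markers at 0.116 to 0.947 and 0.251 to 1.07 FPKM. These are whole-panicle libraries, in which a low level in all cells and a high level in few cells cannot be told apart.

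All 9 genes were expressed in both libraries, with OsAGO4a and OsAGO4b at the top and the CLSY genes at the bottom. Each of the 9 reached 1 FPKM in both libraries, against 37% of the 53983 rows with 1 locus ID. Those rows had a median of 0.0392 FPKM in replicate 1 and 0.0367 FPKM in replicate 2, so many of them had almost no signal. At 10 FPKM in both libraries stood 4 of 9 (OsAGO4a, OsAGO4b, OsNRPE1 and OsAGO16), against 20.2% of rows. At 100 FPKM stood OsAGO4a alone, against 1.94% of rows. The median of the 9 was 7.90 FPKM (replicate 1) and 7.00 FPKM (replicate 2). Over the 20448 expressed rows, those with 1 locus ID whose mean was 1 FPKM or more, it was 11.9 FPKM (replicate 1) and 11.7 FPKM (replicate 2), so the median member was below the median expressed row.

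**Figure D1:**
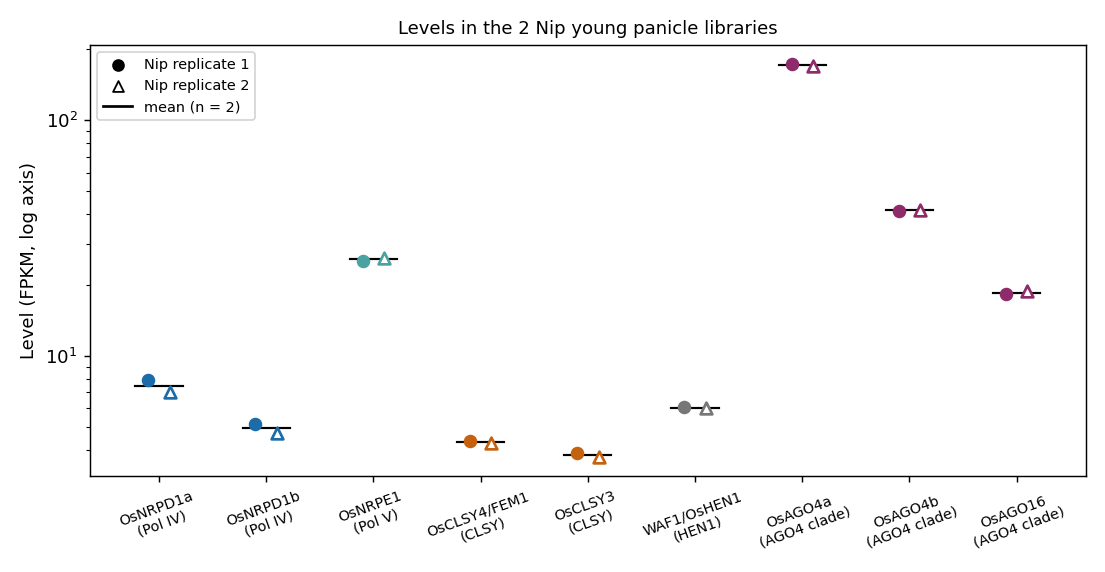
Level in FPKM (log axis) of each of the 9 genes, grouped by role. Filled circles are Nip replicate 1, open triangles Nip replicate 2 and black lines the mean (n = 2); OsAGO4a stood highest at 173 and 170.1 FPKM and OsCLSY3 lowest at 3.86 and 3.73 FPKM.

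The Pol IV genes were expressed at single-digit levels, OsNRPD1a above OsNRPD1b. OsNRPD1a and OsNRPD1b encode alternative largest subunits of Pol IV, the polymerase that starts small interfering RNA synthesis. OsNRPD1a (LOC_Os04g48370, chromosome 4, 28833261 to 28846888) was at 7.90 FPKM (replicate 1) and 7.00 FPKM (replicate 2), a mean of 7.45 ± 0.635 FPKM (SD, n = 2). OsNRPD1b (LOC_Os09g38268, chromosome 9, 22018030 to 22032776) was at 5.16 and 4.72 FPKM, a mean of 4.94 ± 0.311 FPKM. The libraries of one gene did not overlap those of the other, and the level of OsNRPD1a was 1.53 times that of OsNRPD1b in replicate 1 and 1.48 times in replicate 2. Both genes were higher in replicate 1. They are paralogs, and how reads that fit both were assigned is not stated in the labels.

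The Pol V gene stood well above both Pol IV genes. OsNRPE1 (LOC_Os02g05880, chromosome 2, 2904356 to 2919344) encodes the largest subunit of Pol V, whose transcripts are the scaffold that Argonaute-bound small RNAs recognise. It was at 25.3 FPKM (replicate 1) and 26.1 FPKM (replicate 2), a mean of 25.7 ± 0.547 FPKM, higher than 71.9% of expressed rows. Its level was 3.20 and 3.72 times that of OsNRPD1a, and 4.90 and 5.52 times that of OsNRPD1b. It also exceeded the summed level of both Pol IV genes, 1.94 times in replicate 1 and 2.22 times in replicate 2. These ratios were larger in replicate 2, where OsNRPE1 was higher and both Pol IV genes were lower than in replicate 1.

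OsCLSY4/FEM1 and OsCLSY3 had the lowest levels of the 9. Both belong to the CLSY family of SNF2-type remodellers, which in Arabidopsis direct Pol IV to particular loci. OsCLSY4/FEM1 (LOC_Os07g49210, chromosome 7, 29465133 to 29475499) was at 4.35 FPKM (replicate 1) and 4.25 FPKM (replicate 2), a mean of 4.30 ± 0.0675 FPKM. OsCLSY3 (LOC_Os02g43460) was at 3.86 and 3.73 FPKM, a mean of 3.79 ± 0.0937 FPKM. The level of OsCLSY4/FEM1 was 1.13 times that of OsCLSY3 in replicate 1 and 1.14 times in replicate 2, a small step that exceeded the replicate SDs. At such levels 1 kb of transcript rested on an estimated 115 and 106 fragments for OsCLSY4/FEM1. For OsCLSY3 it rested on 102 and 93.2 fragments, which alone gives a counting error of about 10.4% per kilobase. That error is for 1 kb, whereas a level rests on the whole transcript, whose length is not given. How the step compares with the counting error of the levels was not tested. The interval given for OsCLSY3 (chromosome 2, 26214275 to 26239323) was shared with 3 other rows, each under 1 FPKM in both libraries.

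WAF1/OsHEN1 was close to the Pol IV genes in level. The gene (LOC_Os07g06970, chromosome 7, 3429442 to 3434747) encodes the methyltransferase that protects microRNAs and small interfering RNAs at their 3′ ends. It was at 6.06 FPKM (replicate 1) and 6.01 FPKM (replicate 2), a mean of 6.03 ± 0.0364 FPKM. Both values lay between those of OsNRPD1a and OsNRPD1b.

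Of the Argonautes that load the pathway's small RNAs, OsAGO4a was the most abundant. OsAGO4a (LOC_Os01g16870, chromosome 1, 9631295 to 9638901) was at 173 FPKM (replicate 1) and 170.1 FPKM (replicate 2), a mean of 171.6 ± 2.13 FPKM, ranking 514 and 526 among the rows with 1 locus ID. OsAGO4b (LOC_Os04g06770) was at 41.3 FPKM (replicate 1) and 41.7 FPKM (replicate 2), a mean of 41.5 ± 0.279 FPKM. OsAGO16 (LOC_Os07g16224, chromosome 7, 9460475 to 9473859), a further Argonaute of the clade, was at 18.3 and 18.8 FPKM, a mean of 18.6 ± 0.314 FPKM. The 3 genes kept wide distances in both libraries. The level of OsAGO4a was 4.19 and 4.08 times that of OsAGO4b, and that of OsAGO4b was 2.25 and 2.22 times that of OsAGO16. OsAGO4a thus held 74.4% of the summed level of these 3 genes in replicate 1 and 73.8% in replicate 2. The share of OsAGO4b in that sum was 17.7% in replicate 1 and 18.1% in replicate 2, and that of OsAGO16 was 7.88% and 8.15%. The list of other pathway IDs holds LOC_Os01g16850 as a further Argonaute of the clade, with no symbol in the reference gene table to check it against. It was at 40.3 FPKM (replicate 1) and 31.8 FPKM (replicate 2), below OsAGO4b in both libraries and close to it only in replicate 1. With it in the sum, a choice made after the values were seen, the share of OsAGO4a was 63.4% in replicate 1 and 64.8% in replicate 2. LOC_Os01g16850 itself then held 14.8% and 12.1%. Here too the assignment of reads shared by similar genes is not stated, and the interval of OsAGO4b (chromosome 4, 3529913 to 3613651) was shared with 10 other rows.

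Set beside 11 listed Argonautes outside the clade, OsAGO4a was higher than each of them in both libraries. Those 11 ranged from 0.138 to 103.6 FPKM in replicate 1 and from 0.0910 to 103.5 FPKM in replicate 2, with a median of 13.9 FPKM (replicate 1) and 13.0 FPKM (replicate 2). OsAGO4b and OsAGO16 lay within that range and above both medians. OsAGO4a, OsAGO4b and OsAGO16 held 45.1% of the summed level of these 14 Argonautes in replicate 1 and 44.8% in replicate 2. With LOC_Os01g16850 added to the clade, making 15, its share was 49.1% in replicate 1 and 48.0% in replicate 2. Argonautes on none of these lists are not in the sums.

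**Figure D2:**
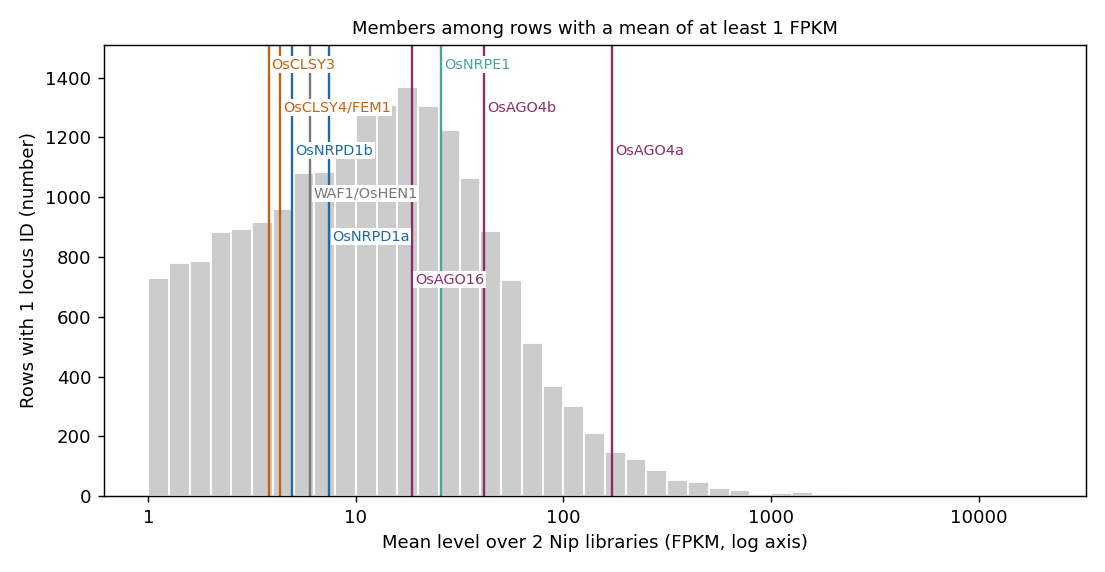
Number of rows with 1 locus ID (grey bars) by mean level over the 2 Nip libraries in FPKM (log axis), for expressed rows (mean of 1 FPKM or more). Vertical lines mark the 9 genes; OsAGO4a lay above 97.5% of these rows, OsNRPE1 above 71.9%, and OsCLSY3 above 23.4%.

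From high to low, the mean levels were in the order OsAGO4a, OsAGO4b, OsNRPE1, OsAGO16, OsNRPD1a, WAF1/OsHEN1, OsNRPD1b, OsCLSY4/FEM1, OsCLSY3. The order was the same in both libraries, as all 36 pairs of genes were ordered alike. For each of the 8 neighbouring pairs, the gap between means exceeded the sum of the SDs and the libraries of the genes did not overlap, which with 2 libraries is a description and not a test. The largest step between neighbours, 4.14-fold, was between OsAGO4a and OsAGO4b. The next was 2.49-fold, between OsAGO16 and OsNRPD1a, and it separated the 4 genes above 10 FPKM from the 5 below. The other steps were 1.13-fold to 1.62-fold. In both libraries the level of OsAGO4a was about 45-fold that of OsCLSY3 (44.8 and 45.6). The 3 Argonautes together held 81.6% and 81.7% of the summed level of the 9 genes, and the Pol IV, Pol V, CLSY and HEN1 genes shared the other 18.4% and 18.3%.

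OsRDR2, the RNA-dependent RNA polymerase that acts on Pol IV transcripts and for which the mutant is named, was at 13.8 FPKM (replicate 1) and 12.8 FPKM (replicate 2). That placed it above OsNRPD1a and OsNRPD1b and below OsNRPE1 in both libraries. OsDRM2, the de novo DNA methyltransferase, was at 22.5 and 21.5 FPKM, below OsNRPE1 and above OsAGO16. Its relative OsDRM3 was at 18.5 and 19.0 FPKM, above OsAGO16 by less than 2% in each library on an interval shared with another row. Of the 6 further IDs listed for the pathway, all reached 1 FPKM and 5 reached 10 FPKM in both libraries, against 37% and 20.2% of rows. The 3 that are not given by symbol had none in the reference gene table. They were LOC_Os01g16850, described above, and LOC_Os01g68120 and LOC_Os10g34430, both listed as Dicer-like genes. LOC_Os01g68120 was at 12.8 FPKM (replicate 1) and 13.7 FPKM (replicate 2). LOC_Os10g34430 was at 3.10 and 2.92 FPKM, below OsCLSY3 in both libraries.

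The 2 libraries gave similar levels for the 9 genes. On the log2(FPKM + 1) scale, 0 of 9 differed by 2-fold or more, against 0.694% of expressed rows. The median absolute log2 difference was 0.03 for the 9 genes and 0.07 for expressed rows. The largest was that of OsNRPD1a, 0.15 higher in replicate 1, and 23.5% of expressed rows were at least as far apart (14.2% of all rows with 1 locus ID, without the filter on low values). OsNRPD1b followed at 0.11, and 36.3% of the rows were at least as far apart. The other 7 genes differed by 0.01 to 0.04. In all, 6 of the 9 were higher in replicate 1, against 10630 of the 20448 expressed rows. Among the 6 were both Pol IV and both CLSY genes, and OsNRPE1, OsAGO4b and OsAGO16 were higher in replicate 2. For 7 of the 9 these directions rest on differences of only 0.01 to 0.04, and whether direction goes with role was not tested.

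**Figure D3:**
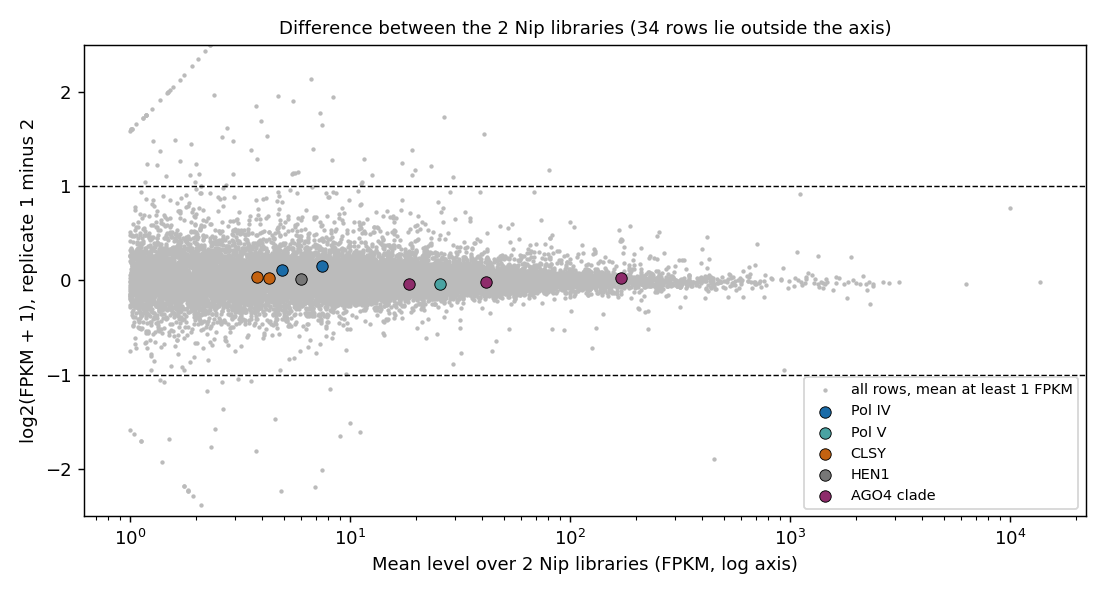
Difference in log2(FPKM + 1), replicate 1 minus replicate 2, against mean level in FPKM (log axis). Grey points are expressed rows (mean of 1 FPKM or more), 34 of which lie outside the axis; coloured points are the 9 genes, all well inside the dashed lines of 2-fold, with OsNRPD1a farthest from 0 at 0.15.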

How the data were processed

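The values are FPKM that the authors estimated for each gene in each library, deposited as rows that hold a pair of libraries, per the file headers. Per the submitters' processing notes, TopHat was used (version not stated). The labels and headers name no estimator, genome build, annotation, scaling between libraries or strand setting. Coordinates are those of the table. The library names ck1 and ck2 were taken as Nip replicates 1 and 2, reading ck as an abbreviation of control. Values of 4 other library names could not be matched to single samples and were not used, so the planned limma test of osrdr2-3 against Nip was not run, and no likeness of expression pattern was sought.

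The members and lists were chosen with earlier results of these data known. All 9 members are named, with those other pathway genes whose symbol stands in a RefSeq gene table (assembly ASM3414082v1) on the same chromosome. Of the members, 2 (OsAGO4a and OsAGO4b) have their symbol there, and the other names came with the list of IDs. Rows with 1 locus ID were the background. Means, SDs, ratios of levels and log2(FPKM + 1) differences were computed in Python 3.11.15 with pandas 2.3.3. Depth was estimated from the smallest steps of low values at loci with 1 row, within a fixed range of step sizes. The span of a locus, introns included, stood in for its transcript length. The estimate was run on simulated data with known lengths and a step inside that range. That simulation therefore cannot show how well the estimate holds for these libraries. Alternatives were median-ratio scaling, each library alone, other minimum levels, a pseudocount of 0.1, no filter on low values and, added after the data were seen, Argonaute shares with LOC_Os01g16850.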

Additional observations from a re-analysis of the deposited data

How the results depend on the processing

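The levels of the 9 genes moved by less than 1 SD in 27 of 27 settings (median-ratio scaling and each library alone). Neither setting tests stability, because a single library of 2 is always less than 1 SD from their mean, and scaling changed little at a median ratio of 1.001 between the libraries. The median member was at 7.45 FPKM, and the single libraries gave 7.00 to 7.90 FPKM. All 36 pairs of genes kept their order in each library. The 15 pathway IDs (the 9 genes and 6 others) all reached 1 FPKM in both libraries, against 37% of the 53983 rows with 1 locus ID. At 5 FPKM in both libraries stood 11 of the 15, against 14233 of the 53983 rows. The median absolute log2 difference between the libraries was 0.0327, with a pseudocount of 0.1 0.0343 and with median-ratio scaling 0.0346. Without the filter on low values, 14.2% of rows were at least as far apart as OsNRPD1a, against 23.5% with it. With LOC_Os01g16850 counted in the clade, the mean share of OsAGO4a was 64.1% in place of 74.1%, and the clade's mean share of the listed Argonautes was 48.5% in place of 44.9%. No paired analysis was possible because only 1 group was analysed. The planned test between genotypes and its alternatives were not run for the same reason.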

Other observations

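The row nearest to OsAGO4a on its lower-coordinate side, LOC_Os01g16850, the further Argonaute of the pathway list (chromosome 1, 9613456 to 9630328), ended 966 bp before the OsAGO4a interval and was less even between the libraries than any of the 9 genes. It was at 40.3 FPKM (replicate 1) and 31.8 FPKM (replicate 2), a log2(FPKM + 1) difference of 0.33, and 6.16% of expressed rows (mean of 1 FPKM or more) were at least as far apart. OsAGO4a itself differed by 0.03. Among the rows nearest to the 9 genes, LOC_Os07g49200 beside OsCLSY4/FEM1 was more uneven still, at 3.61 FPKM (replicate 1) and 1.67 FPKM (replicate 2), a log2(FPKM + 1) difference of 0.79 that 0.998% of expressed rows reached. Both rows were singled out after their values were seen. A further row that joins LOC_Os01g16850 with another ID was at 0.681 FPKM (replicate 1) and 0.522 FPKM (replicate 2).

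Of the 10 rows that share the OsAGO4b interval, LOC_Os04g06790 was the most abundant, at 21.2 FPKM (replicate 1) and 21.6 FPKM (replicate 2), and 5 were listed at 0 in both libraries. The nearest rows with 1 locus ID on either side of OsAGO16, LOC_Os07g16210 and LOC_Os07g16240, were also listed at 0 in both libraries, while OsAGO16 was at 18.3 FPKM (replicate 1) and 18.8 FPKM (replicate 2).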
